A study of Homo sapiens with 18 samples.

Results

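Lysosomes and late endosomes break down cargo with acid hydrolases, and proteases of the same compartments (cathepsins and legumain) trim antigens and cut the ectodomain of TLR9, the receptor for unmethylated CpG DNA, into its signalling form. A V-type proton pump acidifies the compartment, glycoproteins of the LAMP family line its membrane, and the transcription factors TFEB and TFE3 bind an E-box element before the start of many lysosomal genes. The genes described here are 35 of the 56609 gene symbols in the count table. They were chosen by symbol for these roles, with earlier results of these data known. They are 10 proteases (CTSA, CTSB, CTSC, CTSD, CTSH, CTSL, CTSS, CTSZ, LGMN, TPP1), the thiol reductase IFI30, 7 glycosidases and lipid hydrolases (GAA, GLA, GLB1, GUSB, HEXA, LIPA, ASAH1), 3 proteins of lipid handling (NPC1, NPC2, PSAP), 6 membrane proteins (LAMP1, LAMP2, CD63, CD68, SCARB2, MCOLN1), 4 parts of the proton pump (ATP6V0D1, ATP6V1A, ATP6V1H, ATP6AP1), 2 transcription factors (TFEB, TFE3), and the adaptors SQSTM1 of autophagy and AP3B1 of endosomal sorting.

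The RNA came from HG3, MEC2 and PCL12, EBV-positive lines established from chronic lymphocytic leukemia (CLL), so each line stands for 1 patient's clone grown in culture. CpG-stimulated cells received ODN-2006, a synthetic oligonucleotide with CpG motifs, at 2.5 μg·mL−1 for 4 h, and unstimulated cells of the same line did not. Each of the 6 groups had 3 libraries, 18 in all, and each replicate number joined 1 stimulated and 1 unstimulated sample of a line. The labels do not say more on how far replicates were grown apart, so P values measure the spread between these samples.

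Libraries held 20382943 to 67308932 counts, and levels are given in CPM, counts relative to the TMM-scaled total of a library. A count of 0 allows up to 3 counts, or 0.0429 to 0.155 CPM, for counting error only. All 7 B-cell markers checked had a mean of at least 1 CPM over the 18 libraries, and their summed level was 2249 to 4120 CPM. The summed level of 5 T-cell markers, nearly all of it TRAC, was 35.8 to 141 CPM, and that of 8 monocyte and macrophage markers 0.898 to 9.18 CPM. The summed level of 4 stroma markers, nearly all of it COL1A1, differed between the lines. It was 32.2 to 81.9 CPM in unstimulated HG3, 10.2 to 11.5 CPM in MEC2 and 5.27 to 15.1 CPM in PCL12. After CpG it was 27.1 to 46.9, 17.9 to 38.1 and 6.77 to 12.6 CPM, higher without overlap in MEC2 only. Its part in differences between lines or after CpG was not tested. A pair of libraries was rich in mitochondrial counts, replicate 2 of unstimulated HG3 with 20.2% and replicate 2 of MEC2 after CpG with 19.7%, where the rest had 2.82% to 9.28%. In PCL12 replicates 2 and 3, 45 genes selected as strong in MEC2 and weak in the replicate 1 libraries of PCL12 stood at 29.0% to 31.3% of the MEC2 value (median over genes). The 2.26% and 2.36% in replicate 1 follow from the selection, and whether cells or libraries of the lines were mixed was not tested. NFKBIZ, the response gene used as a check of the stimulus, rose after CpG by a Log2FC of 2.20 in MEC2 (adjusted p = 0.0154). Its values in PCL12 (1.71) and HG3 (0.66) did not pass an adjusted p of 0.05, although every pair was higher. The log2 ratios of the pairs were 2.19, 1.53 and 1.38 in PCL12 and 0.67, 1.14 and 0.38 in HG3. With single libraries left out, the unadjusted P of edgeR's test was at most 2.22e-04 in PCL12 and up to 0.201 in HG3. The MEC2 call was lost without CpG-stimulated replicate 1 or 2 or unstimulated replicate 2 or 3 (adjusted p = 0.12 to 0.315). It was also lost without both libraries rich in mitochondrial counts (0.284). The Log2FC in MEC2 stayed at 2.03 to 2.42 with single libraries left out (unadjusted P at most 1.42e-05) and at 2.02 to 2.22 in other settings. PCL12 passed with the replicate number as a block (1.70, adjusted p = 2.56e-11).

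The element bound by TFEB and TFE3 contains the palindrome CACGTG. RefSeq promoter windows (GRCh38.p14, from 250 bases before to 50 after a gene's start) were at hand for 25 of the 35 genes, and 8 of them (32%) held CACGTG on either strand: ATP6V0D1, CD63, CTSA, CTSD, GAA, IFI30, LAMP1 and MCOLN1. Of all 27305 promoters, 7.43% held it. The longer palindrome TCACGTGA, which contains the shorter one, was in 5 of the 25 (20%) against 1.04% of all promoters, and the form with a further G before and C after it was in GAA and MCOLN1 (8%) against 0.381%. Among 97 promoters of other lysosome genes the shares were 24.7%, 12.4% and 7.22%. These are matches of letters and not measured binding.

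The stretches with CACGTG in capitals are shown for 3 genes whose level differed between the cell lines (GAA, CTSA, CTSD) and for 2 with no call between them (MCOLN1, LAMP1), 5′ to 3′ on the gene's strand. They lie before the RefSeq start, at chr17:80101481-80101532 (GAA, + strand), chr20:45891290-45891319 (CTSA, + strand), chr11:1763965-1764027 (CTSD, − strand), chr19:7522524-7522623 (MCOLN1, + strand) and chr13:113297039-113297238 (LAMP1, + strand).
GAA: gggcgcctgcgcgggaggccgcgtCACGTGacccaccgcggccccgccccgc
CTSA: tgtCACGTGgcgccggagttCACGTGactc
CTSD: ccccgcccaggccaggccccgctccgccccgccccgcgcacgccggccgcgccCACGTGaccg
MCOLN1: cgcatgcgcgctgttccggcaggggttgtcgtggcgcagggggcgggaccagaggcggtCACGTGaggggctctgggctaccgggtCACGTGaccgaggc
LAMP1: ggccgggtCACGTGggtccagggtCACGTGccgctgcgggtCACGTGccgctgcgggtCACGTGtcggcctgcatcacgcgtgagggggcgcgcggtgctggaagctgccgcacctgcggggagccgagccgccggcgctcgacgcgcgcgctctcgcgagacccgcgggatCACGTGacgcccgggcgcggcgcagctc
The LAMP1 stretch has 5 matches, and a 6th begins 1 base before the start. In MCOLN1 the matches begin 41 and 14 bases before the start. A second GAA match, 31 bases before the start, lies outside the stretch shown. The CTSA stretch is kept to 30 bases because other annotated CTSA transcripts have exons there.

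Of the 35 genes, 33 had at least 10 counts over the 18 libraries and entered the fit of 31872 genes. IFI30, the lysosomal thiol reductase, had 9 counts in 2 libraries, and CD68, a heavily glycosylated endosomal membrane protein, had 5 counts in 3 libraries. In GENCODE release 44, another gene on the same strand covers 42.5% of the exonic bases of IFI30 and 81.6% of those of CD68. For TLR9 itself, with 37 counts in all, the covered share is 99.7%. The annotation used for counting is not given in the sources used here, and the part of such overlaps in these low counts was not tested. CTSL, the cysteine protease cathepsin L, passed the filter with 118 counts in 13 libraries, none above 32, and no other gene overlaps its exons on that strand. Its highest level was 1.03 CPM, in unstimulated PCL12 replicate 1, and no fold change is drawn from it.

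The first question was whether lysosomal genes moved during 4 h of CpG, since TLR9 signals from this compartment. None of the 33 genes had an adjusted p under 0.05 in any line by edgeR's quasi-likelihood test (of all genes tested, 0.00314% had one in HG3, 0.00314% in MEC2 and 0% in PCL12). An unadjusted P under 0.05 was not reached by any of them either, in HG3 (3.73% of all genes tested), MEC2 (2.46%) or PCL12 (2.09%). The mean effect over the 3 lines gave 0 of 33 as well (4.04% of all genes). DESeq2 and limma-voom, fitted without the pairing like the edgeR test, also gave 0 at an unadjusted P under 0.05. With the replicate number as a block, TFEB alone passed it, in MEC2 (3.41% of all genes) and in the mean over lines (4.54%). That fit gave 0 in HG3 (3.59%) and PCL12 (1.69%). The median Log2FC of the 33 genes was 0.03 in HG3, −0.10 in MEC2 and −0.12 in PCL12, beside 0.00, 0.00 and 0.02 over all genes and 0.01, −0.07 and −0.04 over 124 other lysosome genes.

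A P value over the threshold does not show that a gene stood still, and the intervals set the limit. The 95% confidence interval lay wholly between a Log2FC of −1 and 1 for 28 of the 33 genes in HG3, 23 in MEC2 and 29 in PCL12. In the mean over lines it did so for 32 genes, all but CTSL. A change of 2-fold in either direction was thus outside the interval for most of these genes. SQSTM1, the autophagy receptor p62, had the widest interval after CTSL, from −1.16 to 1.52 in HG3.

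**Figure D1:**
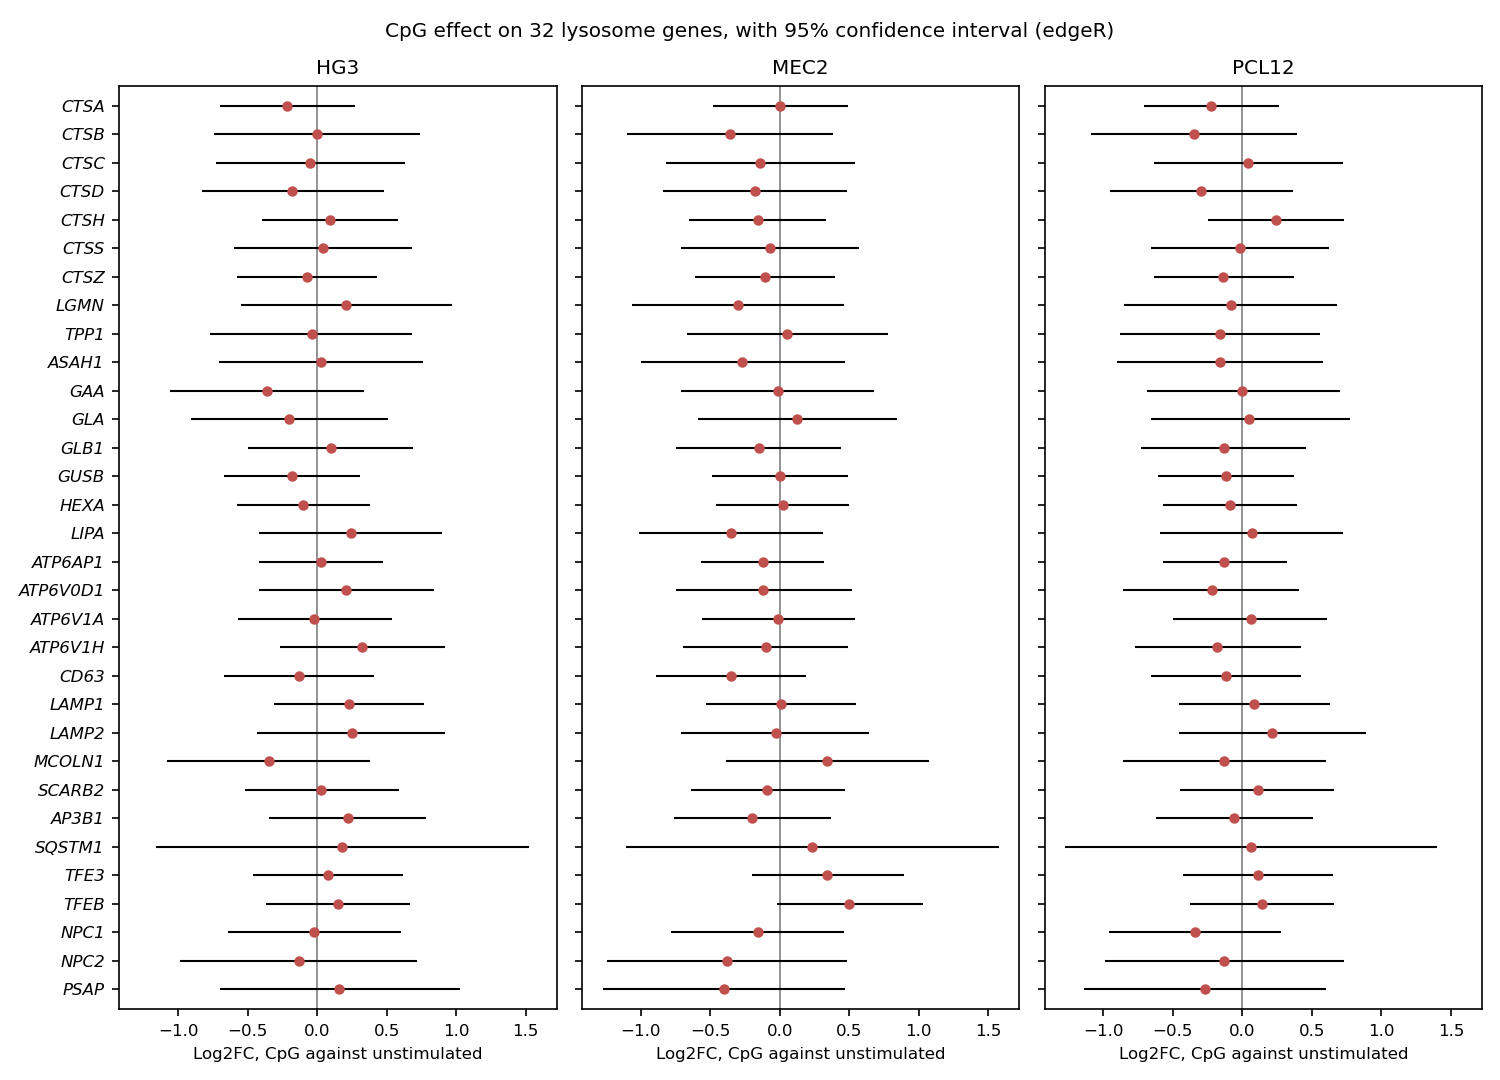
CpG effect on 32 lysosome genes (CTSL left out) as Log2FC of CpG-stimulated against unstimulated cells on the horizontal axis, in HG3, MEC2 and PCL12. Points are edgeR estimates and bars 95% confidence intervals, from the fit without a replicate block. Every bar crosses 0, with TFEB in MEC2 (−0.02 to 1.03) the closest to excluding it.

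For LGMN, CTSS and CTSB, members of the protease families that cut TLR9, levels before and after CpG overlapped in each line. LGMN, the asparaginyl endopeptidase legumain, was at 72.7, 58.9 and 196 CPM in unstimulated HG3 replicates 1 to 3 and at 72.8, 110 and 196 CPM in the CpG-stimulated ones. In MEC2 the LGMN values were 196, 208 and 160 CPM without and 198, 111 and 151 CPM with CpG, and in PCL12 104, 104 and 73.2 CPM against 82.3, 104 and 78.8 CPM. Replicates 1 and 3 of HG3 and MEC2 hardly moved, while replicate 2 was higher after CpG in HG3 and lower in MEC2, the pairs that hold the 2 libraries rich in mitochondrial counts. The Log2FC of LGMN in HG3 was 0.21 (SE 0.37, interval −0.55 to 0.97), and it was 0.94 (adjusted p = 0.742) without unstimulated HG3 replicate 3 and −0.25 without CpG-stimulated HG3 replicate 3.

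CTSS, the cathepsin that trims the invariant chain of MHC class II in B cells, stood at 78.2, 64.9 and 87.8 CPM in unstimulated and 68.7, 79.5 and 88.8 CPM in CpG-stimulated HG3. In MEC2 it went from 86.5, 77.9 and 39.5 CPM to 89.7, 51.6 and 52.7 CPM, and in PCL12 from 111, 77.7 and 52.6 CPM to 98.0, 89.0 and 50.7 CPM. The groups overlapped in all lines, with Log2FC values of 0.04, −0.07 and −0.02 and an SE of 0.31 in each. Replicate 3 was the lowest library in both states of PCL12 and in unstimulated MEC2.

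CTSB, a cysteine protease of late endosomes, was lower after CpG in 8 of the 9 replicate pairs. Its levels in HG3 were 11.5, 18.3 and 30.9 CPM without and 16.1, 16.3 and 28.4 CPM with CpG. In MEC2 they were 46.8, 44.3 and 28.4 CPM against 44.1, 21.0 and 27.9 CPM, and in PCL12 64.5, 43.7 and 27.0 CPM against 40.1, 39.9 and 25.9 CPM. The groups overlapped in each line, the mean Log2FC over the lines was −0.24 (SE 0.21, interval −0.67 to 0.19), and its P missed the threshold. AP3B1, a subunit of the AP-3 complex that sorts TLR9 towards lysosome-related compartments, changed by −0.20 to 0.22 in Log2FC over the lines, none past the threshold. Its HG3 levels were 75.7, 27.8 and 62.0 CPM without and 64.3, 67.6 and 61.0 CPM with CpG, so 1 unstimulated library was low.

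TFEB, which drives lysosomal genes when it enters the nucleus, came closest to a change. Unstimulated MEC2 libraries had 104, 92.2 and 73.4 CPM, and CpG-stimulated ones 141, 156 and 84.5 CPM. Each pair was higher after CpG, although the lowest stimulated value lay within the unstimulated range. In HG3 TFEB was at 156, 178 and 234 CPM without and 188, 202 and 239 CPM with CpG, and in PCL12 at 76.7, 102 and 61.9 CPM against 85.8, 95.3 and 84.5 CPM. It was thus higher in 8 of 9 pairs, replicate 2 of PCL12 being the exception.

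The Log2FC of TFEB in MEC2 was 0.50 (SE 0.26, interval −0.02 to 1.03, adjusted p = 1), and the mean over the lines was 0.26 (SE 0.15, interval −0.04 to 0.57, adjusted p = 1). With the replicate number as a block, the values were 0.47 (adjusted p = 1) in MEC2 and 0.27 (adjusted p = 0.842) over the lines, both under an unadjusted P of 0.05. Without CpG-stimulated MEC2 replicate 3 the MEC2 value was 0.72 (adjusted p = 0.93), under an unadjusted P of 0.05 as well, and without CpG-stimulated replicate 2 it was 0.33 (adjusted p = 1) and over it. With single libraries left out, the mean over lines ran from 0.20 (without unstimulated PCL12 replicate 3) to 0.34 (without CpG-stimulated MEC2 replicate 3). It was under an unadjusted P of 0.05 without the latter, unstimulated HG3 replicate 3 or unstimulated PCL12 replicate 2, and no adjusted p passed. TFE3, its close relative, was at 61.3, 59.4 and 46.8 CPM in unstimulated and 87.1, 81.5 and 44.1 CPM in CpG-stimulated MEC2, where replicates 1 and 2 were higher and replicate 3 was not. Its Log2FC was 0.34 in MEC2 (SE 0.26, interval −0.20 to 0.89), 0.08 in HG3 and 0.11 in PCL12. The MEC2 value was 0.17 (adjusted p = 1) without CpG-stimulated replicate 1 and 0.59 (adjusted p = 0.93, under an unadjusted P of 0.05) without CpG-stimulated replicate 3.

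**Figure D2:**
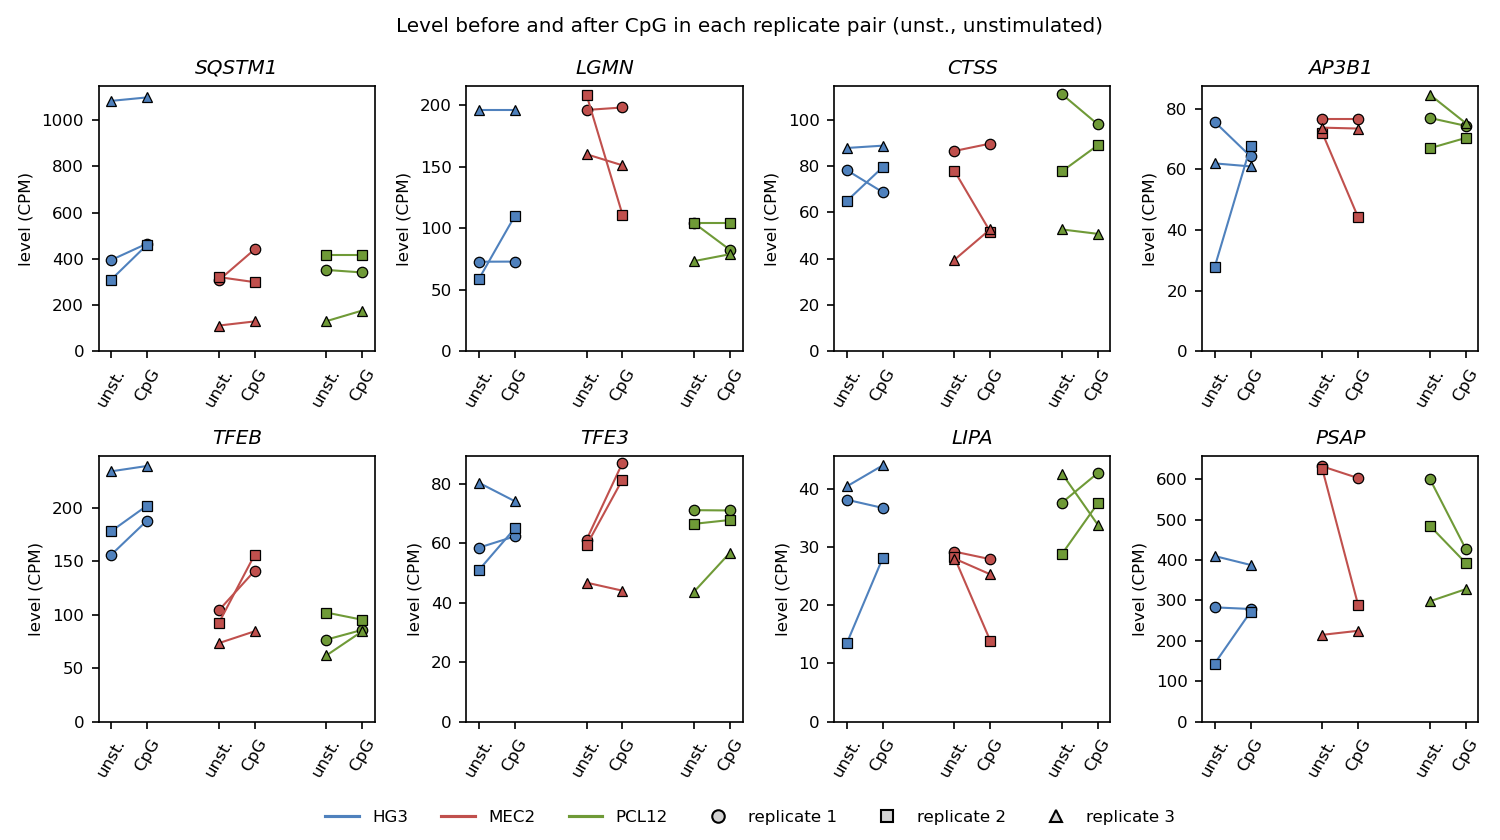
Levels in CPM of 8 lysosome genes in unstimulated (unst.) and CpG-stimulated libraries, with a line joining the samples of a replicate pair, colors for the cell lines and symbols for the replicates. TFEB is higher after CpG in all pairs of HG3 and MEC2, while SQSTM1 of HG3 replicate 3 stands at 1084 and 1099 CPM, far above the other HG3 libraries in both states.

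Counted by overlap, groups were separated for 1 of 33 genes in HG3 (MCOLN1, 3.72% of all genes), for 2 in MEC2 (LIPA and ATP6AP1, 4.72%) and for 2 in PCL12 (CTSH and NPC1, 4.55%). MCOLN1, the lysosomal calcium channel TRPML1, was at 9.39, 14.2 and 10.3 CPM in unstimulated and 9.23, 8.83 and 8.42 CPM in CpG-stimulated HG3. LIPA, the acid lipase, was at 29.2, 28.2 and 28.0 CPM in unstimulated and 27.9, 13.9 and 25.3 CPM in CpG-stimulated MEC2, a Log2FC of −0.35 that did not pass the test (interval −1.01 to 0.31). CTSH, an aminopeptidase, was at 255, 288 and 248 CPM in unstimulated and 311, 309 and 312 CPM in CpG-stimulated PCL12, and NPC1, which exports cholesterol, at 41.4, 35.7 and 31.7 CPM against 29.9, 31.5 and 24.7 CPM. Neither passed the test (Log2FC 0.24, interval −0.25 to 0.73, and −0.34, interval −0.96 to 0.28).

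No gene had a P under 0.05 for a difference in CpG effect between lines, for MEC2 against HG3 (4.10% of all genes), PCL12 against HG3 (4.16%) or PCL12 against MEC2 (3.23%). With the replicate block, 3 genes passed an unadjusted P of 0.05 for MEC2 against HG3 (3.53% of all genes): LIPA (difference of Log2FC −0.77, SE 0.32), LGMN (−0.63, SE 0.29) and PSAP, the saposin precursor (−0.63, SE 0.30), all with an adjusted p of 1. LIPA went from 13.5 to 28.1 CPM in HG3 pair 2 and from 28.2 to 13.9 CPM in MEC2 pair 2. PSAP likewise went from 144 to 272 CPM and from 626 to 289 CPM there. Both pairs contain a library rich in mitochondrial counts, and the part of this in the differences was not tested.

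Taken pair by pair, the log2 ratio of CpG over unstimulated lay between −1 and 1 for all 32 genes other than CTSL in 7 of the 9 pairs. The exceptions were HG3 pair 2, with 29 of 32 inside, and MEC2 pair 2, with 26 of 32. In HG3 pair 2 the ratios ran from −0.89 (GLA, a lysosomal galactosidase) to 1.30 (LAMP2), with 21 of 32 genes higher (57.9% of 12797 genes at a mean of 1 CPM or more). In MEC2 pair 2 they ran from −1.38 (NPC2, the soluble cholesterol carrier) to 0.96 (MCOLN1), and 7 of 32 genes were higher (52.9% of all). The median ratio in MEC2 pair 2 was −0.35, against 0.00 and 0.02 in the other MEC2 pairs. In PCL12 pair 1, 8 of 32 genes were higher (50.2% of all) with a median ratio of −0.22, against 0.00 and 0.05 in PCL12 pairs 2 and 3.

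**Figure D3:**
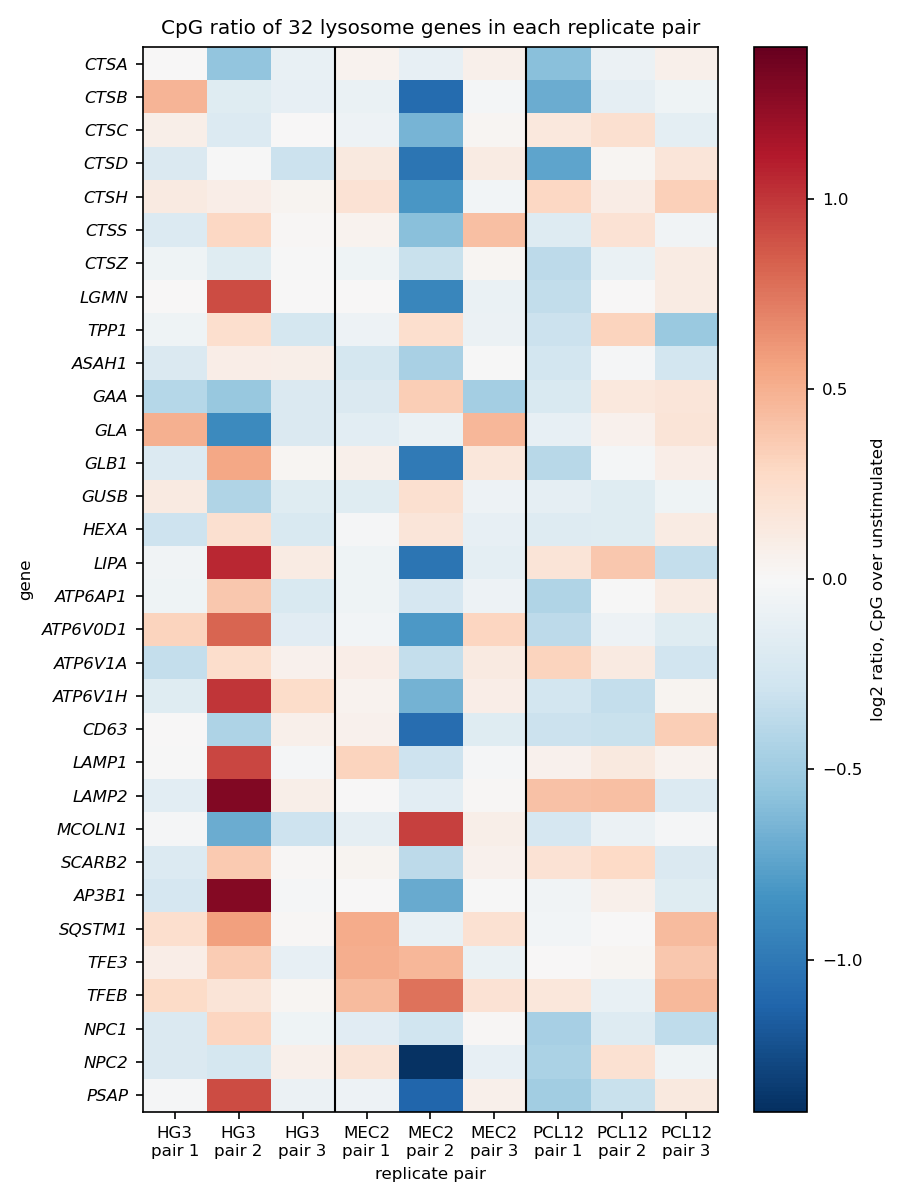
Log2 ratio of CpG-stimulated over unstimulated level for 32 lysosome genes (rows) in the 9 replicate pairs (columns), red for higher and blue for lower after CpG. Deep colors stand mainly in HG3 pair 2, up to 1.30, and MEC2 pair 2, down to −1.38.

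All 3 pairs were higher for CTSH, SQSTM1 and TFEB in HG3, for TFEB in MEC2, and for CTSH and LAMP1 in PCL12, that is for 3, 1 and 2 of 32 genes, against 8.06%, 11.1% and 7.96% of all genes. All 3 pairs were lower for 4 genes in HG3 (CTSD, CTSZ, GAA, MCOLN1), 4 in MEC2 (ASAH1, ATP6AP1, CTSB, LIPA) and 6 in PCL12 (ASAH1, ATP6V0D1, CTSB, GUSB, MCOLN1, NPC1), against 11.1%, 13.6% and 12.8%. At least 8 of the 9 pairs were higher for 1 of 32 genes, TFEB (2.83% of all genes), and lower for 1, CTSB (3.69%), so both counts are near the share of any genes.

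The second question was how the lines differed before stimulation. In MEC2 against HG3, 3 of 33 genes had an adjusted p under 0.05 (9.78% of all genes), 1 higher (4.81% of all) and 2 lower (4.97%). In PCL12 against HG3, 6 of 33 passed (9.44%), 4 higher (4.87%) and 2 lower (4.57%). In PCL12 against MEC2, 4 of 33 passed (2.05%), all higher in PCL12 (1.53% of all genes were called higher and 0.524% lower). The median Log2FC over the 33 genes was −0.09, 0.11 and 0.28 in these comparisons, and 0.00 over all genes in each. With library totals in place of TMM factors the medians were 0.03, 0.27 and 0.33 (0.00, 0.09 and 0.00 over all genes), so the sign of the first depends on the scaling. The comparisons share their line groups. Replicate numbers pair samples within a line and not across lines, so no block is used here.

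CTSZ, a carboxypeptidase also known as cathepsin X, was lowest in HG3 and highest in PCL12. It stood at 101, 98.7 and 143 CPM in unstimulated HG3, at 237, 219 and 206 CPM in MEC2 and at 410, 266 and 281 CPM in PCL12, with no overlap between any of the lines. Log2FC was 0.95 in MEC2 (SE 0.25, adjusted p = 0.0116) and 1.48 in PCL12 (SE 0.25, adjusted p = 1.53e-04) against HG3, while PCL12 and MEC2 did not differ past the threshold (0.53, adjusted p = 0.415). Both calls held in every alternative run.

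CTSD, the main aspartic protease of lysosomes, was low in MEC2. Its levels were 40.7, 45.9 and 60.3 CPM in HG3, 18.4, 18.4 and 16.2 CPM in MEC2 and 79.9, 39.4 and 29.0 CPM in PCL12, so all MEC2 libraries lay below those of the other lines. Log2FC was −1.47 in MEC2 against HG3 (SE 0.33, adjusted p = 0.00297) and 1.49 in PCL12 against MEC2 (SE 0.33, adjusted p = 0.0105). The second call rests on PCL12 replicate 1, without which it was 0.95 (adjusted p = 0.223). It was also lost, narrowly, without any 1 of the MEC2 libraries (adjusted p = 0.0511 to 0.0551). The Log2FC hardly moved there, at 1.51, 1.52 and 1.43 without MEC2 replicates 1, 2 and 3. With PCL12 replicates 2 and 3 left out the Log2FC was 2.20. That fit keeps PCL12 replicate 1 alone, the highest PCL12 library for CTSD, so a larger value followed from the choice. Genes of other names overlap 27.3% of the exonic bases of CTSD on its strand, so part of its reads could be split.

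CTSA, the carboxypeptidase that protects β-galactosidase and neuraminidase, was at 48.4, 52.2 and 61.0 CPM in MEC2 and 134, 80.7 and 88.4 CPM in PCL12, with 67, 83.5 and 58.7 CPM in HG3 between and overlapping both. The Log2FC of PCL12 against MEC2 was 0.91 (SE 0.24, adjusted p = 0.0413). It was lost without any 1 of the MEC2 libraries (0.83, 0.88 and 1.00, adjusted p = 0.241, 0.182 and 0.0657 without replicates 1, 2 and 3) and without PCL12 replicate 1 (0.64, adjusted p = 0.436). CTSB had means of 39.9 CPM in MEC2 and 45.1 CPM in PCL12, against 20.3 CPM in HG3. For MEC2 against HG3 only the unadjusted P was under 0.05. Its adjusted p was 0.021 without HG3 replicate 3 (1.42) and 0.0232 without a filter. CTSB was called higher in PCL12 than in HG3 (1.15, SE 0.37, adjusted p = 0.0444). PCL12 replicate 3, at 27.0 CPM, nevertheless lay under HG3 replicate 3, at 30.9 CPM. That call was lost with limma-voom (1.17, adjusted p = 0.0609), and without HG3 replicates 1 (0.89, adjusted p = 0.17) or 2 (1.12, adjusted p = 0.138) or PCL12 replicates 1 (0.81, adjusted p = 0.243) or 2 (1.19, adjusted p = 0.0822), or both libraries rich in mitochondrial counts (1.09, adjusted p = 0.158).

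With the filter of 10 counts, all libraries and no block, the other proteases gave no call. CTSC, the dipeptidyl peptidase that activates serine proteases, was at 488, 658 and 530 CPM in HG3, above MEC2 (247, 241 and 479 CPM) and PCL12 (255, 260 and 432 CPM) without overlap. Its Log2FC against HG3 was −0.79 in MEC2 (adjusted p = 0.154) and −0.82 in PCL12 (adjusted p = 0.136). Without MEC2 replicate 3 it passed in MEC2 (−1.20, adjusted p = 0.0377), and without a filter in both (adjusted p = 0.0462 and 0.0397). The fit without a filter gave the same SE to genes of unlike spread. SQSTM1 and CTSZ both had 0.28 there in MEC2 against HG3. The SD of their log2 level over unstimulated HG3 replicates was 0.96 and 0.30. Adjusted p values of that fit thus do not measure each gene's own spread. LGMN had its highest mean in MEC2 (188 CPM), and without HG3 replicate 3, at 196 CPM, it was called higher in MEC2 than in HG3 (1.52, adjusted p = 0.00409, against 0.78 and adjusted p = 0.219 with all libraries). Without a filter it was called lower in PCL12 than in MEC2 (−0.98, adjusted p = 0.0168). CTSS, CTSH and TPP1, a tripeptidyl peptidase, had an adjusted p of 0.483 or more in each of the 3 comparisons of lines.

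**Figure D4:**
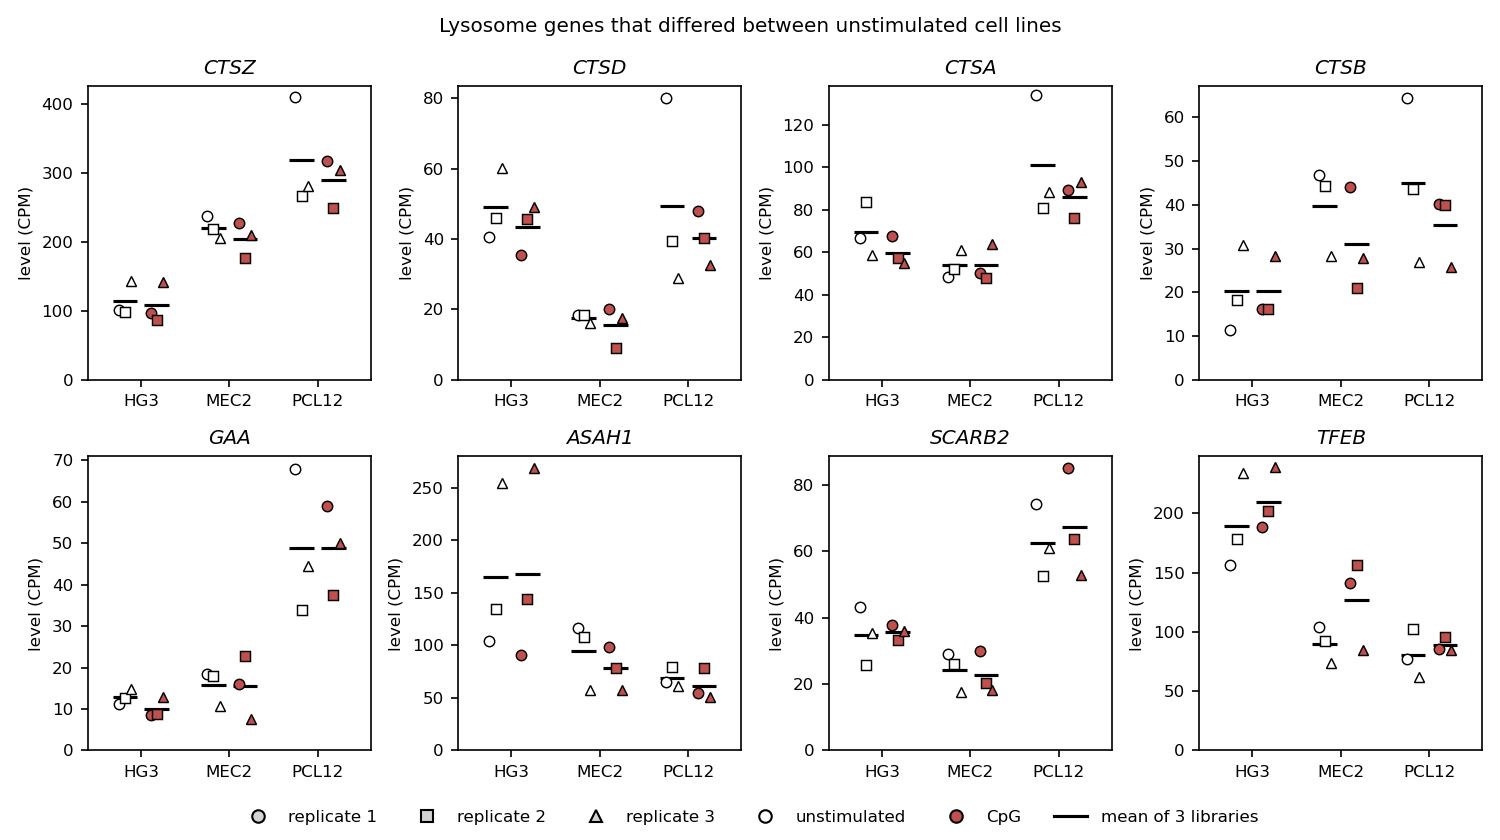
Levels in CPM of the 8 lysosome genes that passed an adjusted p of 0.05 in a comparison of unstimulated lines, white for unstimulated and red for CpG-stimulated libraries, with symbols for replicates and a bar at the mean of 3 libraries. CTSZ is lowest in HG3 and CTSD in MEC2, GAA is highest in PCL12 and TFEB in HG3, and PCL12 replicate 1 is often the highest PCL12 library.

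Of the hydrolases, GAA, the acid α-glucosidase that degrades glycogen, differed most. It was at 11.2, 12.6 and 14.7 CPM in HG3, 18.4, 18 and 10.6 CPM in MEC2 and 67.9, 33.9 and 44.5 CPM in PCL12, where every library lay above those of the other lines. Log2FC of PCL12 was 1.92 against HG3 (SE 0.35, adjusted p = 3.73e-04), a call that held in every alternative. Against MEC2 it was 1.64 (SE 0.35, adjusted p = 0.00751), and this call was lost without PCL12 replicate 1 (1.31, adjusted p = 0.0902) or MEC2 replicate 3 (1.42, adjusted p = 0.0589).

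ASAH1, acid ceramidase, was highest in HG3, with 104, 135 and 255 CPM against 117, 108 and 57.7 CPM in MEC2 and 65.5, 79.2 and 61.3 CPM in PCL12. The Log2FC of PCL12 against HG3 was −1.26 (SE 0.36, adjusted p = 0.0257), and the groups did not overlap. It was −0.80 (adjusted p = 0.188) without HG3 replicate 3, and −1.22 (adjusted p = 0.0839) and −1.16 (adjusted p = 0.106) without PCL12 replicates 1 and 3. The call was also lost with library totals in place of TMM factors (−1.09, adjusted p = 0.0532) and with both libraries rich in mitochondrial counts left out (−1.39, adjusted p = 0.0876). HEXA, a β-hexosaminidase subunit, GLA, GLB1, GUSB and LIPA had no call, and their means in unstimulated lines stood between 19.1 CPM (GLA in MEC2) and 83.5 CPM (GUSB in PCL12).

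With the filter of 10 counts, all libraries and no block, none of the 3 proteins of lipid handling had a call by edgeR's test. NPC2 was at 38.8, 62.0 and 44 CPM in HG3, 21.5, 25.3 and 11.5 CPM in MEC2 and 36.3, 23.6 and 11.6 CPM in PCL12, all of them below HG3. Its Log2FC in MEC2 was −1.31 (SE 0.42, adjusted p = 0.0506), just over the threshold, and it passed with DESeq2 (adjusted p = 0.019), limma-voom (0.0413) and edgeR's own filter on low counts (0.0428). Without a filter NPC2 passed in MEC2 (adjusted p = 5.61e-04) and PCL12 (0.0174), NPC1 in PCL12 (0.0419) and PSAP in MEC2 (0.0467). The SE of that fit does not follow each gene's spread. NPC1 was at 60.8, 41.0 and 96.7 CPM in HG3 and gave −0.82 in MEC2 (adjusted p = 0.0937) and −0.87 in PCL12 (adjusted p = 0.0736). DESeq2 called it in both (adjusted p = 0.0494 and 0.0357), as did edgeR without HG3 replicate 2 (−1.05, adjusted p = 0.0198, and −1.09, adjusted p = 0.0151) and without both libraries rich in mitochondrial counts (adjusted p = 0.0175 and 0.0126). PSAP ran the other way, from 283, 144 and 410 CPM in HG3 to 632, 626 and 215 CPM in MEC2, but its groups overlapped and its adjusted p was 0.261.

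SCARB2, the LIMP-2 membrane protein that carries glucocerebrosidase to lysosomes, was higher in PCL12. It was at 43.1, 25.6 and 35.4 CPM in HG3, 28.9, 26.1 and 17.6 CPM in MEC2 and 74.3, 52.4 and 60.8 CPM in PCL12. The Log2FC was 1.37 against MEC2 (SE 0.27, adjusted p = 0.00468), which held in every alternative. Against HG3 it was 0.85 (SE 0.27, adjusted p = 0.0466), and leaving out HG3 replicate 2 or 3 or any 1 PCL12 library ended that call, with values of 0.70 to 0.96 and adjusted p values of 0.0517 to 0.183, as did leaving out both libraries rich in mitochondrial counts (0.67, adjusted p = 0.125). LAMP1, LAMP2, the tetraspanin CD63 and MCOLN1 had no call in any of the 3 comparisons.

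None of the 4 parts of the proton pump among the 35 genes passed either. Means in unstimulated lines were 26.5 to 35.1 CPM for ATP6V1H, 52.7 to 65.4 CPM for ATP6V1A, 55.9 to 81.4 CPM for ATP6V0D1 and 68.7 to 87.6 CPM for ATP6AP1. The smallest adjusted p among these 4 genes was 0.346, for ATP6AP1 in PCL12 against HG3 (Log2FC 0.35, SE 0.22).

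TFEB was the transcription factor that differed, with the highest level in HG3. The unstimulated HG3 values of 156, 178 and 234 CPM lay above all values of MEC2 (73.4 to 104 CPM) and PCL12 (61.9 to 102 CPM). Log2FC was −1.07 in MEC2 (SE 0.26, adjusted p = 0.00595) and −1.24 in PCL12 (SE 0.26, adjusted p = 0.00168) against HG3, and −0.16 between PCL12 and MEC2 (interval −0.69 to 0.36). The MEC2 call held in every alternative. The PCL12 call was lost where PCL12 replicates 2 and 3 were both left out (−1.29, adjusted p = 0.0948), a fit that leaves a lone PCL12 library, assumed to vary like the other groups. TFE3 did not differ between the lines past the threshold, with means of 63.4, 55.8 and 60.5 CPM and Log2FC intervals within −0.72 and 0.66.

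PCL12 replicates 2 and 3 are those in which the 45 genes stood at 29% to 31.3% of the MEC2 value. These genes were selected as strong in MEC2 and weak in PCL12 replicate 1. With PCL12 replicates 2 and 3 left out, the median Log2FC over the 33 genes was 0.50 against HG3 in place of 0.11, and 0.66 against MEC2 in place of 0.28. The median CpG effect in PCL12 was −0.24 in that fit in place of −0.12. That fit rests on PCL12 replicate 1 alone. Against MEC2, Log2FC in it was 1.65 for SCARB2, 2.20 for CTSD, 2.14 for GAA and 1.33 for CTSA. With all libraries these were 1.37, 1.49, 1.64 and 0.91. Against HG3, the calls of ASAH1 (−1.31), SCARB2 (1.11) and TFEB (−1.29) were lost, with −1.26, 0.85 and −1.24 from all libraries.

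Groups without overlap were 6 of 33 genes for MEC2 against HG3 (22.2% of all genes), 8 of 33 for PCL12 against HG3 (21.1%) and 13 of 33 for PCL12 against MEC2 (17.3%). In the last comparison 11 of the 13 were higher in PCL12, namely CTSA, CTSD, CTSZ, GAA, GLB1, GUSB, LAMP1, SCARB2, ATP6V0D1, ATP6V1H and ATP6AP1. LGMN and ATP6V1A were lower.

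Many of these genes kept the level of their replicate number with and without CpG. In HG3, both replicate 3 libraries lay above the other 4 HG3 libraries for 19 of 32 genes, against 24.3% of all 12797 genes. SQSTM1, picked for this after its values were seen, was at 395, 310 and 1084 CPM in unstimulated and 466, 461 and 1099 CPM in CpG-stimulated HG3. In MEC2, both replicate 3 libraries lay below the rest for 10 genes (22.5% of all genes) and above them for 5 (21.2%), and SQSTM1 was at 307, 321 and 111 CPM without and 441, 299 and 129 CPM with CpG. In PCL12, replicate 1 was above for 15 genes (13.0%) and replicate 3 below for 12 (14%). The median SD of a gene's log2 level over unstimulated replicates was 0.38 in HG3, 0.21 in MEC2 and, for PCL12, 0.34, while the log2 pair ratio had a median SD of 0.29, 0.35 and 0.23. In these bulk samples, fewer cells of a kind and less RNA per cell cannot be told apart.

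Beyond the 35 genes, 124 other lysosome genes were followed as a list. After CpG, none had an adjusted p under 0.05 in any line. An unadjusted P under 0.05 was reached by 5 in HG3 (4.03% of the list), of which MITF was higher and CTSV, IDUA, PPT2 and TFEC lower, by 1 in MEC2 (DNASE2, 0.806%) and by 0 in PCL12. CTSV, MITF and TFEC were under 1 CPM in all HG3 libraries. Between unstimulated lines, 23 passed in MEC2 against HG3 (9 higher, 14 lower), 19 in PCL12 against HG3 (10 higher, 9 lower) and 7 in PCL12 against MEC2 (6 higher, 1 lower), which is 18.5%, 15.3% and 5.65% of the list beside 9.78%, 9.44% and 2.05% of all genes. LAMP3, a LAMP family member of activated cells, was at 54.6, 50.8 and 144 CPM in unstimulated HG3, at 0.0573, 0 and 0 CPM in MEC2 and at 18.1, 12.9 and 9.26 CPM in PCL12. TFEC, a relative of TFEB, ran the other way, with 0.571, 0.0516 and 0.0263 CPM in HG3, 8.34, 6.53 and 11.6 CPM in MEC2 and 4.78, 11.2 and 6.57 CPM in PCL12 (adjusted p against HG3 2.23e-05 and 3.61e-05).

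AGA, which cleaves glycoasparagine, was at 4.67 to 7.51 CPM in MEC2, 17.7 to 21.7 CPM in HG3 and 15.0 to 18.2 CPM in PCL12 (Log2FC of MEC2 against HG3 −1.76). FUCA1, a fucosidase, was at 12.4 to 24.6 CPM in HG3 and 68.4 to 111 CPM in PCL12 (2.24). ATP6V0A1, a membrane subunit of the proton pump, was lower in PCL12, at 28.7 to 38.6 CPM against 65.1 to 140 CPM in HG3 (−1.69), and CTNS, the cystine exporter, higher in PCL12, at 15.7 to 24.4 CPM against 5.59 to 8.03 CPM in MEC2 (1.60). The ATP6V0A1 call was lost with PCL12 replicates 2 and 3 left out (−1.76, adjusted p = 0.0527), and that of CTNS without MEC2 replicate 2 (1.49, adjusted p = 0.0511).

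The 4 endolysosomal nucleases of the list can degrade or process DNA and RNA that reach TLRs. PLD4, an exonuclease, was at 0.703, 0 and 0 CPM in HG3 and at 8.69 to 12 CPM in MEC2 and 9.73 to 14.1 CPM in PCL12 (adjusted p = 0.0133 and 0.0106). RNASET2, which cuts RNA, was lower in PCL12 than in HG3 (−1.45, adjusted p = 0.0433), and DNASE2 and PLD3 had no call between lines. After CpG, DNASE2 in MEC2 went from 25.1, 22.4 and 17.2 CPM to 15.9, 11.7 and 14 CPM without overlap (Log2FC −0.64, adjusted p = 1, under an unadjusted P of 0.05). UNC93B1, the chaperone that carries TLR9 to endosomes, was higher in MEC2 (1.01, adjusted p = 0.0122) and PCL12 (0.92, adjusted p = 0.0245) than in HG3, at 79.9 to 94.6 and 75.3 to 94.9 CPM against 30.7 to 52.2 CPM.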

How the data were processed

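RNA of 3 cell lines was sequenced with and without CpG. The authors deposited unnormalized counts per gene symbol. The submitters' notes name FastQC, MultiQC, Trimmomatic, STAR, featureCounts and hg38 without settings. For kits, labels name Promega and Lexogen QuantSeq, and the paper Qiagen.

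The deposited counts of genes with at least 10 counts over 18 libraries were fitted in edgeR 4.0.16 (R 4.3.3; TMM, 1 mean for each of 6 groups, 12 residual degrees of freedom, quasi-likelihood test), with Benjamini-Hochberg adjustment over all genes tested. Python 3.11.15 made the tables. The scripts were tested on simulated data. Alternatives were DESeq2 1.42.0, limma-voom (limma 3.58.1), a replicate block, other scalings and filters, and libraries left out.

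The members and lists were chosen with earlier results of these data known. By rule, libraries are given for TLR9-related proteases, AP3B1, TFEB, TFE3 and members past a threshold, with up to 3 other lysosome genes per contrast and the nucleases; LIPA and PSAP by the block, and MCOLN1, CTSH, NPC1, NPC2, CTSC and SQSTM1, were added after their values were seen. Overlaps of exons are from GENCODE 44.

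The series description places 1 stimulated and 1 unstimulated sample in each replicate, so numbers pair samples. With group means removed, same-numbered libraries correlated in HG3 at 0.259, 0.212 and 0.48 (replicates 1 to 3), MEC2 having 0.189, −0.0133 and 0.611, PCL12 0.607, 0.494 and 0.515. Replicates of a group differed beyond counting noise.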

Additional observations from a re-analysis of the deposited data

How the results depend on the processing

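Of the counts of genes called, 187 of 220 values under alternatives stayed within 1.5 times, and of the values of named genes 381 of 434 kept their direction and side of the threshold, 42 lost a call, 8 gained one and 3 reversed. The threshold in this tally is an adjusted p of 0.05 between lines and an unadjusted P of 0.05 for CpG effects, NFKBIZ included, so all gains and the losses of NFKBIZ in HG3 are unadjusted and losses of its adjusted call in MEC2 are not counted. The reversals were LGMN in HG3 after CpG, at −0.25 without CpG-stimulated replicate 3, −0.07 without unstimulated replicate 2, and −0.09 with both libraries rich in mitochondrial counts left out, a setting chosen after seeing the data (0.94 without unstimulated replicate 3). With the replicate block, counts at P under 0.05 were 1 in MEC2 (3.41% of all genes), 1 for the mean over lines (4.54%) and 3 for MEC2 against HG3 (3.53%). In unstimulated MEC2 4 genes were lower than in HG3 with the block (2 without it), as with DESeq2 (4). Calls either way were 10.2% of all genes with the block and 13.9% with DESeq2. The block moved no other count by over 1.5 times. Between lines the numbers pair no samples, so calls gained or lost with the block there rest on no pairing. In MEC2, CpG replicate 1 correlated more with unstimulated replicate 2 (0.449) than 1 (0.189), and CpG replicate 2 more with unstimulated 1 (0.388) than 2 (−0.0133), so MEC2 pair ratios and blocked values rest on the numbers as labelled. Without a filter, 3 genes were higher and 6 lower in MEC2 than HG3, 6 lower in PCL12 than HG3 and 1 lower in PCL12 than MEC2. Calls either way were 8.83%, 8.94% and 3.2% of all genes in these comparisons. The SE of that fit does not follow each gene's spread. Lower in PCL12 than HG3 was 1 gene with library totals (9.79% of all genes called either way). Higher were 2 genes without both mitochondria-rich libraries (9.97%). With each library left out in turn, CpG counts ran from 0 to 3 in HG3 and in MEC2. In HG3 there were 3 without unstimulated replicate 3 (LGMN, ATP6V0D1 and LAMP2, 6.14% of all genes). In MEC2 there were 3 without CpG replicate 1 (PSAP, CD63 and NPC2, 2.43%) and 3 without CpG replicate 3 (TFEB, CTSC and TFE3, 3.94%). Counts were 0 to 1 for the mean over lines (3.85% to 5.34% where 1) and for MEC2 against HG3 (4.9% where 1). They were 0 to 2 for PCL12 against HG3 (4.64% where 2). In PCL12 (0.889% to 2.5%) and for PCL12 against MEC2 (2.21% to 3.17%) they were 0. Calls between unstimulated lines ran from 1 to 3 higher and 2 to 3 lower in MEC2 against HG3. They were 2 to 3 higher and 1 to 3 lower in PCL12 against HG3, and 1 to 4 higher and 0 lower in PCL12 against MEC2. Of all genes, 7.09% to 9.22%, 7.23% to 9.01% and 1% to 2.08% were called either way in these fits. Of these 13 counts and the named genes, the cause of each change was not tested. At this depth, genes under about 1 CPM in all groups compared, CTSL among them, allow no statement. For genes under it in 1 line and above it in another (LAMP3, TFEC, PLD4, GABARAPL1), levels are given without a fold.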

Other observations

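Some other lysosome genes stood apart between the lines by all libraries, and were picked after their values were seen. RRAGD, a GTPase of the lysosomal mTORC1 platform, was at 25.9 to 31.4 CPM in unstimulated MEC2, against 2.12 to 3.26 CPM in HG3 and 0.609 to 8.68 CPM in PCL12, where replicates 2 and 3 had 5.03 and 8.68 CPM and replicate 1 had 0.609 CPM. GABARAPL1, which lines autophagosomes, was at 6.75 to 15.0 CPM in MEC2 and 0 to 0.825 CPM in HG3. ACP5, an acid phosphatase, was at 9.43 to 39.2 CPM in MEC2 and 19.4 to 80.2 CPM in PCL12, against 0.0516 to 2.71 CPM in HG3.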
